A study of Homo sapiens with 4 samples.

Results

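The genes for the nuclear-encoded subunits of the mitochondrial respiratory chain and the ATP synthase were compared between SB and SCt cells. Both are derived from SAS, an established cell line from a human squamous cell carcinoma of the tongue. SB cells stably carry pLKO.1-LYRIC shRNA-B, a lentiviral short hairpin RNA against astrocyte elevated gene-1 (AEG-1, gene symbol MTDH, also named LYRIC), and SCt cells carry pLKO.1, described as the vector in the sample labels and as a scrambled shRNA in the study's methods. Both lines had been selected with puromycin (2 μg/ml) for 14 days and were kept in it afterwards, and each is a stably selected line made with a single construct. RNA from both lines was hybridized together on each of 4 Agilent human arrays, with SB cells in the red channel and SCt cells in the green channel on all 4, so that a dye effect of a probe cannot be told apart from a difference between the lines. The values below are log2 ratios of SB over SCt, normalized within each array, so that 0 is no difference and 1 is a doubling of the level in SB cells. The labels call the arrays biological replicates, but nothing states that they come from separate cultures, and the p-values measure only the spread between these 4 arrays.

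Members were chosen by gene symbol, through the patterns NDUF with A, B, C, S or V and a number, SDHA to SDHD, UQCR, COX4 to COX8 with an isoform letter, and ATP5. They came to 108 probes of 88 genes, out of 34127 probes on the array. Complex I had 37 genes, complex II 4, complex III 10, complex IV 16 and complex V 21. Of the 88 genes, 83 encode subunits. The other 5 carry a matching name but are not counted as subunits: ATP5IF1 (the inhibitor of the ATP synthase), DMAC2 and DMAC2L (formerly ATP5SL and ATP5S), UQCRBP1 (a pseudogene of UQCRB) and ATP5MGL (a gene like ATP5MG). Apart from COX8C, the testis form of subunit 8, all members had signals well above background for both cell lines on each of the 4 arrays, which left 107 probes of 87 genes for testing. COX8C was above background on 0 arrays in either channel, so its level has only an upper bound. Where a gene had several probes, the brightest stands for it.

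Complex I oxidizes NADH and complex II oxidizes succinate, and both pass electrons to coenzyme Q. Complex III carries them on to cytochrome c and complex IV to oxygen, and complex V, the ATP synthase, uses the proton gradient built by complexes I, III and IV to make ATP. In each of the large complexes a few conserved subunits hold the catalytic centres, while many small accessory subunits surround them, and all but a handful of subunits are encoded in the nucleus. The handful encoded in mitochondrial DNA (13 genes) was not analysed here, since 0 of the 13 could be matched to a named probe.

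The knockdown target checked the labels. MTDH gave log2 ratios of −3.18, −3.01, −3.12 and −3.41 on arrays 1 to 4, a mean of −3.18 ± 0.17 (SD, n = 4), with an adjusted p of 5.19e-10 in limma. Each array held 43118 gene spots, of which 85.4% to 90.3% were well above background in the SB channel and 84.7% to 90.0% in the SCt channel, and no spot was saturated. Squamous markers (KRT5, KRT14, KRT6A, KRT17, TP63, CDH1, EPCAM and DSG3) were above background on every array. The fibroblast genes COL3A1 and LUM were at background on every array, COL1A1 and DCN were above it, PDGFRB was above it on 2 arrays in the SB and 1 in the SCt channel and was not tested, and all 4 leukocyte and all 3 endothelial markers were above it too, with 0 of the 7 called different.

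No respiratory chain gene differed between SB and SCt cells past the threshold. Of 107 member probes, 0 had an adjusted p under 0.05 in limma, in a comparison in which 3.7% of all 28505 probes passed (1055 probes, with 1.32% higher and 2.38% lower in SB cells). In RNA of whole cultures, a change in the share of cells that express a gene and in RNA per cell cannot be told apart. Counted by gene, 0 of 87 passed, against 3.51% of all 23484 genes. At an unadjusted p under 0.05, 13 of the 107 probes passed (12.1%, against 18.7% of all probes). These 13 include the brightest probes of 8 genes, 5 with a mean above 0 and 3 with a mean below 0, or 9.2% of the 87 genes against 18.1% of all genes. Mean log2 ratios ran from −0.18 for NDUFA5 to 0.23 for COX6B2, and 55 of the 87 lay above 0 (63.2%, against 55.4% of all genes). The 95% intervals of limma reached from −0.41 to 0.48 at their outer ends. Under loess these intervals lay within 1.5-fold in either direction for each of the 87 genes, as for 99.2% of all genes. In limma the spread of each gene is drawn toward that of all genes. For a gene with a wide spread between arrays, such as ATP5F1E (SD 0.67), the interval is therefore narrower than its own 4 arrays would give. The member intervals were wider than those of other genes, reaching a median of 0.16 to either side of the mean on the log2 scale, against 0.13 for all genes.

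**Figure D1:**
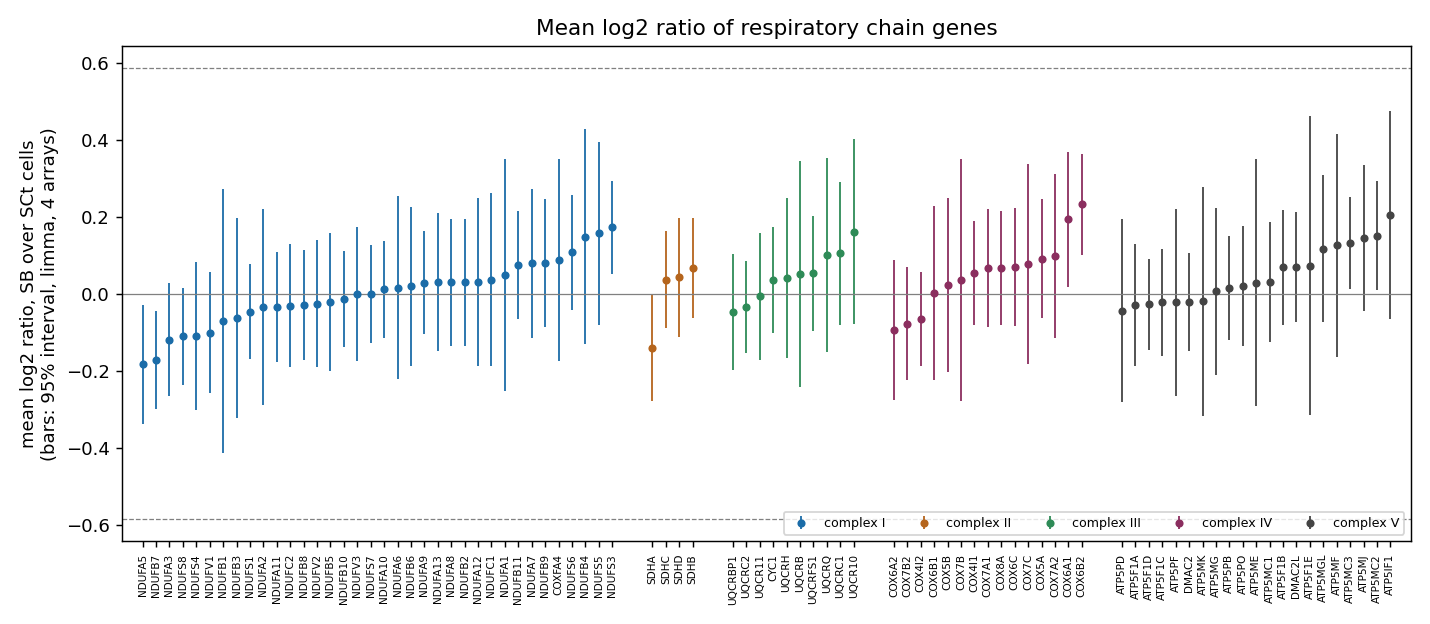
Mean log2 ratio of SB over SCt cells (vertical axis) for the genes tested, except 1 of complex I, ordered within complexes I to V (colours), with the 95% interval of limma over 4 arrays as bars. The dashed lines mark 1.5-fold in either direction, and all bars end inside them. In limma the spread of each gene is drawn toward that of all genes.

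The 5 complexes lay close together. The median of the gene means was 0.01 in complex I, 0.04 in complex II, 0.05 in complex III, 0.07 in complex IV and 0.03 in complex V, beside 0.01 over all genes. Such spacings are small against the SD of the array medians within a complex, which was between 0.10 (complex II) and 0.21 (complexes I and III). All complexes were measured on the same arrays, so this SD does not settle their order. Complex IV lay above complex I on each array, with medians of 0.27, 0.10, 0.11 and −0.13 against 0.20, 0.06, 0.04 and −0.30. Complex II had the lowest median on array 1 (0.12) and the highest on array 4 (−0.02). No test was run between complexes, because their genes share the same 4 arrays.

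In complex I, the core subunits, which hold or surround the flavin and the iron-sulfur clusters, ranged from −0.11 (NDUFS8) to 0.17 (NDUFS3). NDUFS3, a core subunit of the arm that reduces coenzyme Q, was at 0.24, 0.20, 0.13 and 0.12 on arrays 1 to 4, a mean of 0.17 ± 0.06 (SD, n = 4) with an adjusted p of 0.114 in limma. It had the same sign on every array. Of the accessory subunits, NDUFA5 was at −0.15, 0.04, −0.25 and −0.39, a mean of −0.18 ± 0.18 (adjusted p = 0.183, limma). NDUFB7 was at −0.11, −0.30, −0.10 and −0.18, a mean of −0.17 ± 0.09 (adjusted p = 0.132, limma). The values of NDUFB7 lay below 0 on all 4 arrays, while NDUFA5 crossed 0 on array 2. NDUFA3, an accessory subunit of the membrane arm and the next lowest mean, was at 0.03, −0.21, −0.01 and −0.30. At the upper end, the accessory subunit NDUFB4 was at 0.62, 0.30, 0.14 and −0.47, a mean of 0.15 ± 0.46. NDUFS5 was at 0.54, 0.20, 0.24 and −0.35, a mean of 0.16 ± 0.37. Both means are made of high values on array 1 and values far below 0 on array 4, and their adjusted p-values in limma were 0.585 and 0.481.

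Complex II, which is also the succinate dehydrogenase of the citric acid cycle, has 4 subunits and all were measured. SDHA, the flavoprotein that oxidizes succinate, was at −0.30, −0.07, −0.19 and −0.01 on arrays 1 to 4, below 0 on each, with a mean of −0.14 ± 0.13 (SD, n = 4) and an adjusted p of 0.252 in limma. The iron-sulfur subunit SDHB was at 0.14, 0.17, −0.01 and −0.03, a mean of 0.07 ± 0.10. Of the membrane anchors, SDHC was at 0.16, −0.01, 0.05 and −0.05 and SDHD at 0.10, 0.12, −0.23 and 0.18, with means of 0.04 and 0.04. Apart from SDHA the subunits crossed 0 between arrays, and SDHC had the most distant probes of the complex, whose means ran from −0.07 to 0.16 over 3 probes. The means of the 4 probes of SDHA ran from −0.14 to −0.02, and those of its 2 lowest probes were both −0.14.

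In complex III, the large subunits comprise the core proteins UQCRC1 and UQCRC2, cytochrome c1 (CYC1) and the Rieske iron-sulfur protein (UQCRFS1), and their means ran from −0.04 to 0.10. UQCRC1 was at −0.14, −0.05, 0.44 and 0.16 on arrays 1 to 4, a mean of 0.10 ± 0.26 (SD, n = 4), and UQCRC2 at 0.02, −0.03, −0.11 and −0.01, a mean of −0.04 ± 0.06. UQCRC1 was far higher on array 3 than on the others, whereas UQCRC2 stayed near 0 throughout. Among the small subunits, UQCR10 had the highest mean, at 0.52, 0.28, 0.21 and −0.37, or 0.16 ± 0.38 (adjusted p = 0.474, limma). UQCRQ was at 0.56, 0.11, 0.16 and −0.42, and UQCR11, with the lowest mean of them, at 0.24, 0.01, −0.01 and −0.28. In all 3, array 1 was the highest and array 4 the lowest. UQCRBP1, the pseudogene, was at 0.19, −0.09, −0.07 and −0.22. Its probe may share sequence with UQCRB, which was not tested.

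Complex IV held the member nearest to the threshold. COX6B2, the testis form of a subunit at the cytochrome c side of the complex, was at 0.26, 0.08, 0.26 and 0.33 on arrays 1 to 4, a mean of 0.23 ± 0.11 (SD, n = 4) with an adjusted p of 0.0565 in limma. All 4 values lay above 0, and its dimmer probe had a mean of 0.17 with an adjusted p of 0.144 in limma. The brighter probe lay at the 99.7th percentile of brightness of all probes and the dimmer one at the 51.5th. Whether the brighter probe measures only this testis form was not tested. In the ratios of the scanner software the brighter probe had a mean of 0.12, and with a single median for each array in place of loess it had one of 0.65 (adjusted p = 0.000157, limma), which lies outside the 1.5-fold range. COX6A1 was at 0.46, 0.18, 0.25 and −0.11, a mean of 0.19 ± 0.24, and COX7A2 at 0.46, 0.14, 0.11 and −0.32, a mean of 0.10 ± 0.32. These are the widely expressed forms of subunits 6A and 7A, and array 4 lay below 0 for both. The lowest means belonged to tissue-restricted forms: COX6A2 of heart and skeletal muscle at −0.09 ± 0.25, COX7B2 of testis at −0.08 ± 0.16 and COX4I2, best known from lung, at −0.07 ± 0.06.

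For 5 subunits of complex IV, both the common and the restricted form were measured. The mean log2 ratio was 0.05 for COX4I1 against −0.07 for COX4I2, and 0.19 for COX6A1 against −0.09 for COX6A2. It was 0.0014 for COX6B1 against 0.23 for COX6B2. COX7A2 was at 0.10 and the muscle form COX7A1 at 0.07, and COX7B was at 0.04 and COX7B2 at −0.08. The common form had the higher mean in 4 of the 5 pairs and the lower one in the COX6B pair, and no form of any pair passed the threshold. The probes of COX7B2, COX7A1, COX6A2 and COX4I2 lay at the 27.2nd, 32.7th, 67.5th and 92.4th percentile of brightness. Whether the probes of the restricted forms measure only these forms was not tested. For the ring of c subunits in the ATP synthase, whose mature protein is the same from each of its 3 genes, ATP5MC1 was at 0.03 ± 0.18, ATP5MC2 at 0.15 ± 0.14 and ATP5MC3 at 0.13 ± 0.05. ATP5MC3 was at 0.14, 0.20, 0.06 and 0.13 on arrays 1 to 4, one of few members with little spread. ATP5MG and its relative ATP5MGL were at 0.01 and 0.12.

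In complex V, the catalytic head F1 is built of the subunits alpha (ATP5F1A), beta (ATP5F1B), gamma (ATP5F1C), delta (ATP5F1D) and epsilon (ATP5F1E). ATP5F1A was at −0.08, 0.04, −0.27 and 0.18 on arrays 1 to 4, a mean of −0.03 ± 0.19 (SD, n = 4), and ATP5F1D at −0.07, 0.0013, 0.01 and −0.05, a mean of −0.03 ± 0.04. The delta subunit had the smallest SD of the 87 genes. Of the stalk and membrane subunits, ATP5PD had the lowest mean, at 0.27, −0.00095, 0.13 and −0.58, or −0.04 ± 0.37. ATP5MC2 was at 0.24, 0.30, 0.03 and 0.03 and ATP5MJ, a small membrane subunit, at 0.42, 0.15, 0.22 and −0.22. The former lay above 0 on every array and the latter was below 0 on array 4 only, with adjusted p-values of 0.233 and 0.409 in limma. The inhibitor ATP5IF1 had the highest mean of the group, 0.21 ± 0.44, from values of −0.17, −0.06, 0.81 and 0.24. Array 3 was far above the others, and the second probe of ATP5IF1 had a mean of −0.05, the widest disagreement among the 15 genes with several probes (0.26). In none of the 15 did the probes differ by more than 0.3.

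The arrays disagreed on most members. The median over the 87 genes was 0.21 on array 1, 0.08 on array 2, 0.05 on array 3 and −0.22 on array 4, while the median over all genes lay between 0.003 and 0.02 on every array. Between arrays the SD of a member gene had a median of 0.19, against 0.11 for all genes and 0.11 for the genes in the upper quartile of brightness. Array 1 lay above array 4 in 72 of 87 genes (82.8%, against 48.5% of all genes). In 55 of them array 1 was the highest and array 4 the lowest of the 4 arrays, which is 63.2% against 12.7% of all genes. Only 7 of the 87 had the same sign on all arrays (8.05%, against 26.1%).

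**Figure D2:**
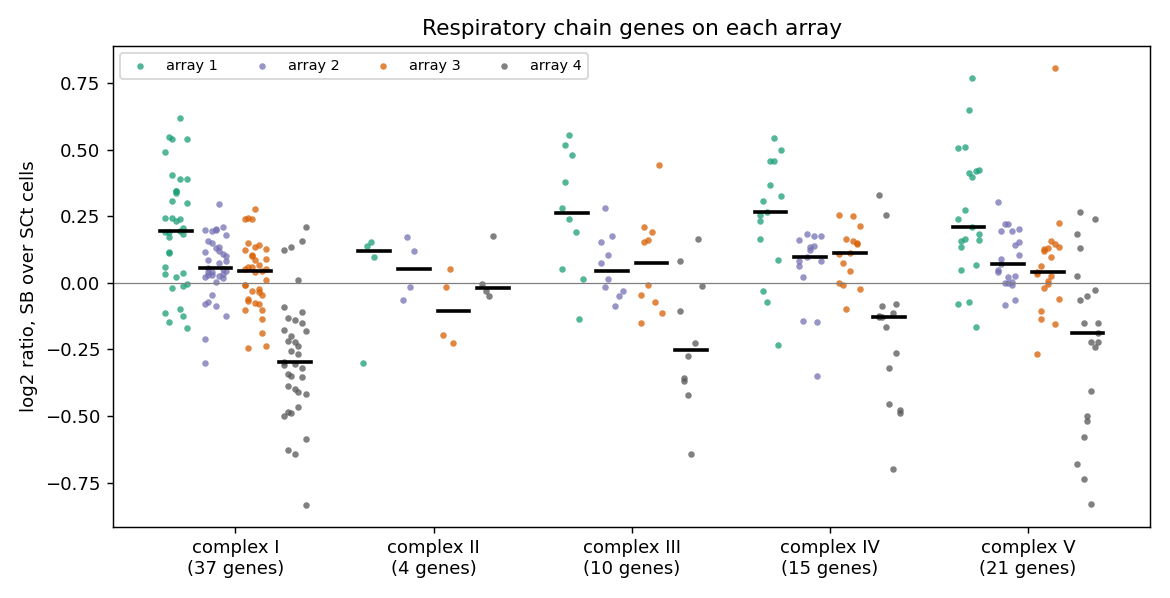
Log2 ratio of SB over SCt cells (vertical axis) on arrays 1 to 4 (colours) for the genes of complexes I to V, 1 point a gene, with the median as a bar. In complexes I, III, IV and V the points of array 1 sit mostly above 0 and those of array 4 mostly below 0, with medians on array 4 of −0.30, −0.25, −0.13 and −0.19, whereas complex II has a median of −0.02 there.

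The disagreement differed by the kind of subunit. The difference between arrays 1 and 4, given here as the log2 ratio on array 1 minus that on array 4, had a median of 0.52 over the 30 accessory subunits of complex I and 0.03 over its 7 core subunits. It was 0.89 over the 5 small subunits of complex III and 0.00043 over its 4 large ones. In complex V it was 0.73 over the 12 stalk and membrane subunits and −0.02 over the 5 of F1. Complex IV stood at 0.43 over 15 genes and complex II at 0.05 over 4. A difference over 0.5 was found in 18 of the 30 accessory and 1 of the 7 core subunits of complex I, in all 5 small and 0 of the 4 large subunits of complex III, and in 7 of the 12 stalk and membrane and 1 of the 5 F1 subunits. Over all members it was found in 39 of 87 genes (44.8%), against 3.18% of all genes. The groups of subunits were compared after this pattern had been seen, so these are descriptions without a test. Each gene stands here by its brightest probe, and other probes did not always share the difference. It ran from 0.23 to 0.90 over the probes of UQCR10, from 0.30 to 1.12 for UQCRB and from 0.10 to 0.56 for NDUFB5. For UQCRH it ran from 0.74 to 0.80 and for ATP5MF from 1.02 to 1.15.

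The genes with the widest differences between the arrays, are named here after their values were seen. ATP5F1E, the epsilon subunit, was at 0.77, 0.20, 0.16 and −0.83 on arrays 1 to 4, a mean of 0.07 ± 0.67 (SD, n = 4). The accessory subunit NDUFB1 was at 0.54, −0.12, 0.13 and −0.83 and ATP5ME, subunit e of the ATP synthase, at 0.51, 0.22, 0.12 and −0.74. In all 3 the arrays at the ends differed by more than a factor of 2, in opposite directions from 0, around a mean near 0. COX7B was at 0.54, 0.14, 0.16 and −0.70, ATP5MK at 0.51, 0.05, 0.04 and −0.68 and NDUFA1 at 0.55, 0.03, 0.24 and −0.63. Array 4 lay above array 1 in 15 of the 87 genes. By the brightest probe, the difference was furthest below 0 for the inhibitor ATP5IF1 (−0.41) and the muscle form COX7A1 (−0.33). UQCRC1 (−0.30), SDHA (−0.30) and ATP5F1A (−0.26) followed. The second probe of ATP5IF1 went the other way, with a difference of 1.04. Differences below −0.5 were found in 0 members and in 1.05% of all genes.

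**Figure D3:**
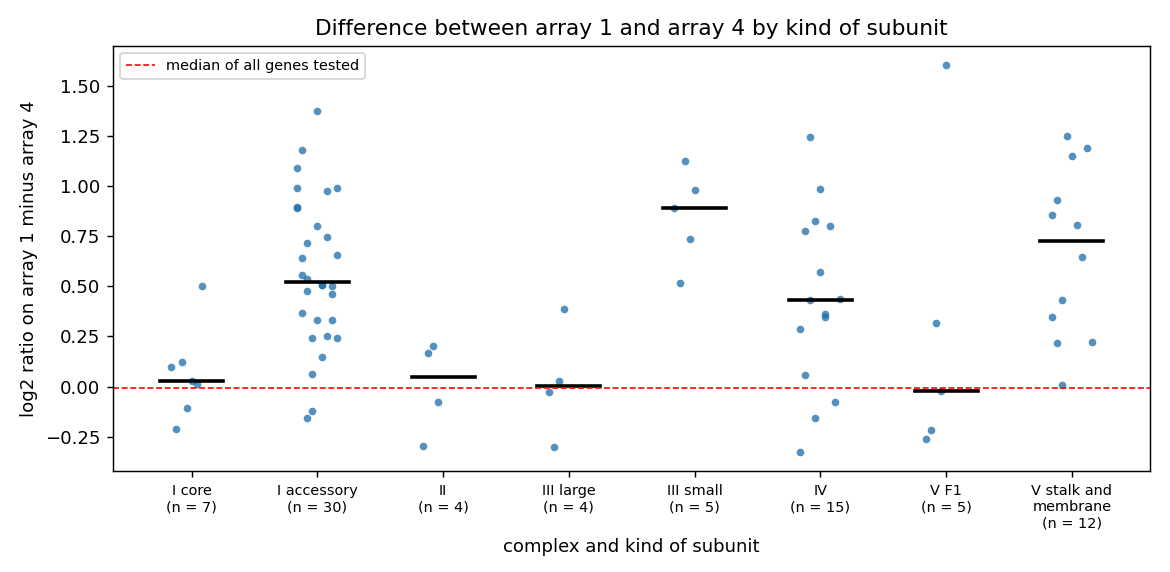
Log2 ratio on array 1 minus that on array 4 (vertical axis) for the brightest probe of each subunit gene, grouped by complex and kind of subunit, with the group median as a bar and the median of all genes tested as a dashed line. The small subunits of complex III and the stalk and membrane subunits of complex V have medians of 0.89 and 0.73, and ATP5F1E is the point at 1.60 in the F1 group.

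Repeated spots were at hand for a few members. COX7C, a small membrane subunit of complex IV, was spotted 10 times per array. Its log2 ratio had an SD of 0.030 to 0.063 between spots of an array, against 0.41 between arrays, where it was at 0.50, 0.08, 0.21 and −0.49. NDUFS5 had an SD of 0.021 to 0.052 between spots and 0.37 between arrays. UQCRC2, a large subunit spotted as often, had 0.031 to 0.063 between spots and 0.055 between arrays. The value of an array is the mean of these spots, so the SD between arrays is that of means and the SD between spots that of single spots. Members ranked lower in brightness on the SCt channel of array 1, with a median percentile of 84.3 against 85.9 to 87.3 on arrays 2 to 4. On the SB channel they ranked lowest on array 4, at 84.5 against 86.6 to 88.2 on arrays 1 to 3. Beside the chain, the median difference between arrays 1 and 4 was 0.34 over 75 mitochondrial ribosomal proteins and 0.64 over 80 cytosolic ribosomal proteins, a list added after the pattern was seen. Over 18 enzymes of the citric acid cycle it was 0.03. All arrays lie on a single slide and RNA quality was not part of the files, so the part of the sample or of the array in this was not tested.

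The number of members past the threshold depended on which arrays entered. Without array 4, 17 of 107 member probes passed (15.9%, against 6.99% of all probes), all 17 higher in SB cells, where 3.01% of all probes passed in that direction. They belong to 16 genes: COXFA4 (formerly NDUFA4, put in complex I by its name and since assigned to complex IV), NDUFA1, NDUFB4, NDUFS5, UQCR10, UQCRB, UQCRQ, COX6A1, COX7A2, COX7B, COX7C, ATP5F1E, ATP5ME, ATP5MF, ATP5MGL and ATP5MJ. On arrays 1 to 3 the mean of ATP5F1E was 0.37 (adjusted p = 0.00282, limma), that of NDUFB4 0.35 (adjusted p = 0.00224) and that of UQCR10 0.34 (adjusted p = 0.00217). Without array 1, 0 of 107 passed, against 2.22% of all probes. At an unadjusted p under 0.05 in limma, 9 of 107 did so (8.41%, against 17.7% of all probes). Without both, a choice made after seeing the data, 1 member probe of 107 passed, against 3.54% of all probes. The median over the member genes was 0.13 without array 4, −0.05 without array 1 and 0.06 without both, on the log2 scale.

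The scaling changed the calls as well. The members are bright genes, and their median brightness lay at the 88.9th percentile of all probes. With a single median for each array in place of the intensity-dependent loess curve, the median of the members was 0.21 and that of all genes 0.07, while that of the genes in the upper quartile of brightness was 0.18. Under that setting 34 member probes passed (31.8%), with a higher level in SB cells for 32 and a lower one for 2, where 31.4% of all probes passed, 19.6% higher and 11.7% lower. The share of member probes called was therefore close to that of all probes in total, but not by direction. Higher in SB cells were 29.9% of member probes against 19.6% of all, and lower were 1.87% against 11.7%. The medians of complexes I to V were then 0.17, 0.18, 0.27, 0.21 and 0.24.

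**Figure D4:**
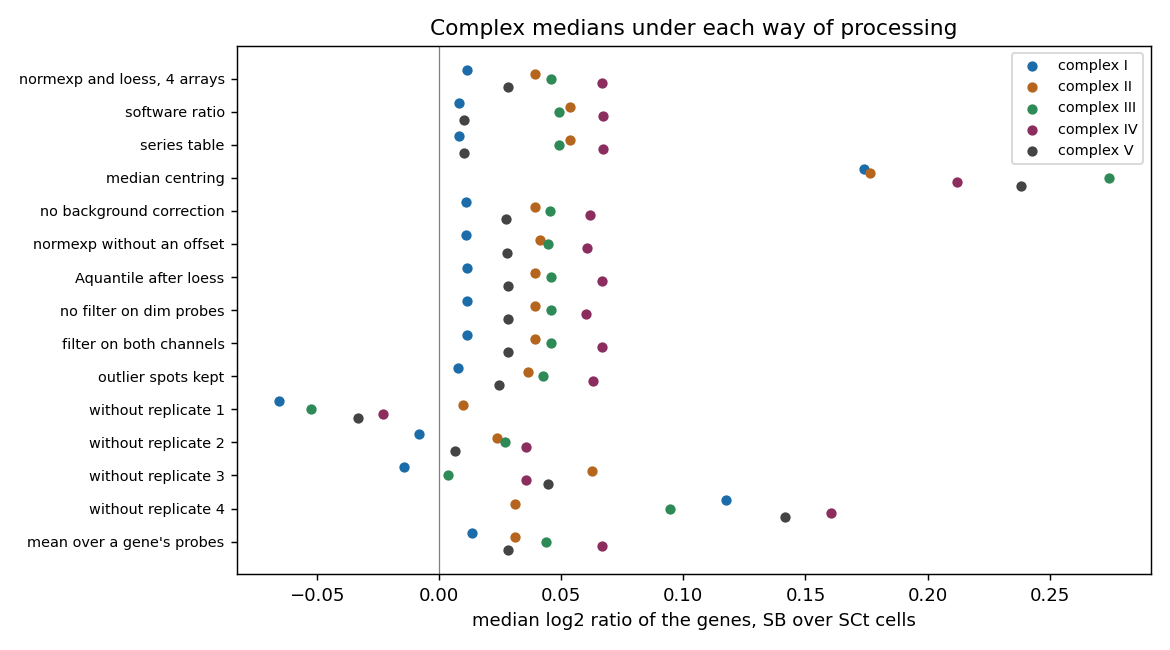
Median log2 ratio of the genes of complexes I to V (horizontal axis, colours) under each way of processing (rows). The medians lie between 0.01 and 0.07 with all 4 arrays under loess or the scanner software's own ratios, move to between 0.17 and 0.27 with median centring, and lie between −0.07 and 0.01 without array 1.

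Many nuclear genes of the chain share binding sites for nuclear respiratory factor 1 (NRF1) and for GABP, an ETS-family factor also known as NRF2, in their promoters. The letters CGCATGCG (the centre of an NRF1 site, the same on both strands) and CCGGAAGT (an ETS site, ACTTCCGG on the other strand) were searched on both strands in the RefSeq windows from 250 bases before to 50 bases after the start (GRCh38.p14). A window was at hand for 68 of the 83 subunit genes, 80 windows in all. The ETS letters were in 12 of the 80 (15.0%), against 4.14% of all 35116 windows, and the NRF1 letters in 11 (13.8%), against 2.02%. The NRF1 share depends on the letters asked for: with a G before and a C after them, the form searched first, 4 windows matched (5.0%), against 1.24% of all windows. The sites below, 30 bases each with the motif in capitals, were picked by hand to set genes with wide differences between arrays beside genes with little. UQCRH, the hinge protein (0.74), UQCRQ (0.98), ATP5MK (1.19) and NDUFB4 (1.09) have wide ones on the log2 scale. NDUFS1, a core iron-sulfur subunit (0.10), SDHD (−0.08) and ATP5F1A (−0.26) have little or the opposite.
UQCRH ETS site, chr1:46303640-46303669, plus strand: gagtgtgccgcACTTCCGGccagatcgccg
UQCRQ ETS site, chr5:132866577-132866606, plus strand: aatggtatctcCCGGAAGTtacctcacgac
ATP5MK ETS site, chr10:103396617-103396646, minus strand: gtgcaattcttCCGGAAGTgtgggcgggct
NDUFB4 NRF1 site, chr3:120596167-120596196, plus strand: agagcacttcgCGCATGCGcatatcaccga
NDUFS1 ETS site, chr2:206159584-206159613, minus strand: aggctggggccACTTCCGGcggaactgcgg
SDHD ETS site, chr11:112086784-112086813, plus strand: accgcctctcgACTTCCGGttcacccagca
SDHD NRF1 site, chr11:112086753-112086782, plus strand: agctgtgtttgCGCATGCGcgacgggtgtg
ATP5F1A ETS site, chr18:46098327-46098356, minus strand: cgaggggcagtACTTCCGGgtcaggtgggc
By kind of subunit, the ETS letters were in 3 of 4 windows of small and 0 of 3 of large complex III subunits, in 1 of 32 of accessory and 1 of 7 of core complex I subunits, and in 3 of 13 of stalk and membrane and 1 of 4 of F1 subunits. The NRF1 letters were in 0 of 4 windows of small and 0 of 3 of large complex III subunits. They were in 4 of 32 of accessory and 1 of 7 of core complex I subunits. In complex V they were in 3 of 13 of stalk and membrane and 1 of 4 of F1 subunits. A match describes the letters only and shows no binding, and a link to the differences between arrays was not tested.

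Genes around the chain were counted from lists. Of 46 assembly factors, 4 fell in SB cells past the threshold, where 2.26% of all genes fell, and the other 42 did not pass. HIGD1A, a factor of complexes III and IV, was at −0.15, −0.32, −0.47 and −0.32 on arrays 1 to 4, a mean of −0.31 ± 0.13 (SD, n = 4; adjusted p = 0.0184, limma). TTC19, which acts on complex III, was at −0.27, −0.21, −0.35 and −0.22, and NDUFAF1, a complex I factor, at −0.10, −0.39, −0.30 and −0.24. LRPPRC, which stabilizes mitochondrial messenger RNA, was at −0.16, −0.30, −0.37 and −0.19. All 4 lay below 0 on every array under loess, with means of −0.31, −0.26, −0.26 and −0.26 in this order, and of −0.04, −0.16, −0.20 and −0.05 with median centring. Of 75 mitochondrial ribosomal proteins, 2 fell, MRPL50 with a mean of −0.37 ± 0.17 and MRPL16 with −0.34 ± 0.19, and both were at −0.23 with median centring. None of these 6 passed without array 3, when their adjusted p-values in limma were between 0.128 and 0.199. That of MTDH also rose in limma, from 5.19e-10 with all 4 arrays to 2.25e-05 without array 3. The share of all genes passing without array 3 was not counted, so the loss cannot be called particular to these 6. Passing genes numbered 0 of 18 for electron carriers and coenzyme Q synthesis (0 at an unadjusted p under 0.05), 0 of 15 for regulators of mitochondrial biogenesis (2) and 0 of 18 for citric acid cycle enzymes (1), all by limma. The first of these lists also held NDUFAB1, the acyl carrier subunit of complex I, whose name the patterns do not take, at a mean of −0.13, and COXFA4L2 at −0.11. PPARGC1A, the coactivator PGC-1alpha, was at background on every array. GABPA, which encodes the DNA-binding part of GABP, was at −0.12, −0.06, −0.42 and −0.10, a mean of −0.18 ± 0.16 (adjusted p = 0.183, limma), and NRF1 had a mean of 0.03 ± 0.24.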

How the data were processed

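RNA of SB (red dye) and SCt cells (green dye) was hybridized to 4 arrays. For each, the authors deposited the output of Agilent Feature Extraction 10.5.1.1, with median red and green intensity values and local backgrounds on a linear scale, not normalized, and the software's log10 ratio of red over green. The authors also deposited a series table on a log2 scale. Its column medians lie between −0.02 and 0.02, and 97.6% to 97.9% of its values per array equalled the software's processed ratio of SB over SCt to within 0.001. The design named mean intensities, but the files hold medians, which were used.

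With limma 3.58.1 in R 4.3.3, the background was corrected by normexp (offset 50), 1377 control spots and 814 to 1168 outlier spots per array were dropped, ratios were normalized by loess within arrays, and a probe's spots were averaged. Probes entered the test if either channel was well above background on all 4 arrays and values existed on at least 2 (28505 of 34127). Means were tested against 0 by lmFit and eBayes, with Benjamini-Hochberg adjustment over all of these. The steps were tested on simulated data. An exact sign-flip test of 4 arrays cannot go below a two-sided p of 0.125, so none was used.

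The files hold no gene symbols, so probes were named by unversioned accession in the RefSeq table (GRCh38.p14), which matched 24826. Of the members, 84 genes matched by current symbol and 4 by an older one. The members and lists were chosen with earlier results of these data known. Named are MTDH, members past an adjusted p of 0.05, the 3 highest and 3 lowest means of each complex (all of complex II), isoform pairs, members whose probes differ by over 0.3, and list genes past the threshold. Other genes were chosen after their values were seen, and 1 member is counted but not reported here by name. The promoter letters were also chosen late: an NRF1 form with 1 more base on each side and a YY1 motif had been searched before.

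Results were recomputed from the software's ratios and from the series table, with median centring, without background correction or without its offset, with Aquantile added, with no brightness filter or one asking for both dyes, with outlier spots retained, with trend and robust eBayes, by the methods' t-test, leaving out each array, averaging a gene's probes, moving COXFA4 to complex IV, and dropping names that are no subunits. The number of arrays limits the precision.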

Additional observations from a re-analysis of the deposited data

Results flagged for a closer look

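In 3 of the 87 member genes, 1 array lay far from the other arrays, with a gap to its nearest neighbour that took up more of the range than Dixon's critical value for 4 samples allows. Chance would give about 1 in 20 genes, and 3 of 87 is not more than that. The share over all genes was not counted. NDUFA10, an accessory subunit of complex I, was at −0.02, −0.04, −0.03 and 0.14 on arrays 1 to 4. The gap of array 4, its highest value, was 0.863 of the range. Its dimmer probe was at 0.13, 0.01, 0.01 and −0.08, with array 4 lowest, so the high value of array 4 holds for the brightest probe only. NDUFB11, an accessory subunit of the membrane arm, was at 0.12, 0.16, 0.15 and −0.13, with array 4 lowest and a gap of 0.859. NDUFV1, the core subunit that binds NADH and the flavin, was at −0.17, 0.18, −0.24 and −0.18, with array 2 highest and a gap of 0.833. The reason for these gaps was not tested.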

How the results depend on the processing

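The medians of the complexes were smaller than the spread of the arrays, and their sign depended on the arrays used. Without array 1 the median was −0.05 over all member genes, −0.07 in complex I, −0.05 in III, −0.02 in IV and −0.03 in V, and 0.01 in complex II. Complex I also lay below 0 without array 2 (−0.008) and without array 3 (−0.01). With median centring, 34 member probes (31.8%, against 31.4% of all probes) and 30 member genes passed instead of 0. The medians of complexes I to V moved to 0.174, 0.176, 0.274, 0.212 and 0.238, and that of all member genes to 0.207. The methods' t-test left MTDH at −3.18 with an adjusted p above the threshold, since it called 0 probes in all. With each array left out in turn, between 0 and 17 member probes and between 0 and 16 member genes passed, the upper ends without array 4. Without that array 15.9% of member probes passed, against 6.99% of all probes. With arrays 1 and 4 both left out, an alternative added after seeing the data, 1 member gene passed. By probe this was 0.935% of members, against 3.54% of all. The median of the member genes lay between −0.05 and 0.13 with an array left out. The test was already paired by array, since each value is a ratio of both cell lines on the same array. The 4 arrays form a single group, so no further pairing was possible. With 4 arrays and no dye swap, the limma 95% intervals of member genes reached 0.12 to 0.39 to either side (log2 scale, median 0.16). Means up to 0.23 did not pass.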
